A study of Danio rerio with 4 samples.

Results

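This account concerns 10 vascular endothelial genes of the zebrafish, chosen by name: the transcription factor genes etsrp, tal1 and lmo2, the receptor genes kdrl, flt1, flt4 and tie1, and the genes cdh5, dll4 and egfl7. The choice was made with earlier results of these data known. Every probe whose RefSeq accession maps to one of these symbols was taken. This gave 17 probes of 9 genes, out of 43569 probes read and 13366 named genes, and no probe was matched to tie1 by accession. All 17 probes passed the detection filter (a signal marked as well above background on 2 or more of the 4 arrays), which 36026 probes and 12332 named genes passed in all. The genes flt1, lmo2 and egfl7 had 3 probes each, kdrl and tal1 had 2, and etsrp, flt4, cdh5 and dll4 had 1.

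RNA came from whole zebrafish embryos and was hybridised to Agilent one-colour arrays. The 4 groups were embryos at 96 hours post fertilization (hpf) in 3.9 µM copper, embryos at 96 hpf in 0 µM copper (control), embryos at 24 hpf in 3.9 µM copper and embryos at 24 hpf in 0 µM copper (control). Each group was 1 array, and neither the strain nor the number of embryos behind an array was stated in the sources used here. Within one age, copper and control can therefore be set side by side as 2 single arrays, and no p-value or replicate spread goes with that difference. In whole embryos, fewer endothelial cells and less RNA per endothelial cell cannot be told apart.

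The sample labels and the names of the scanner files give opposite treatments, and the authors' deposited table sides with the file names. All 2964 probes it lists at 96 hpf, and all 5555 at 24 hpf, had the sign opposite to the difference taken from the labels. Groups below follow the labels, and every copper difference is copper minus control by label, so each of these signs turns if the file names are right. The share of probes well above background ran between 76.9% and 83.6%. The median processed signal was 190.2 on the copper array and 194.4 on the control array at 96 hpf, against 366.4 on the copper array and 162.2 on the control array at 24 hpf. Values are log2 processed signal after quantile normalization over the 4 arrays, and the probe with the highest mean signal (the brightest) stands for a gene with several. Signals of different probes cannot be ranked against each other.

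Endothelial cells line all blood vessels, and in the zebrafish embryo they arise, together with blood progenitors, from lateral mesoderm. The ETS factor Etsrp (Etv2) starts this fate, and the basic helix-loop-helix factor Tal1 and its partner Lmo2 act in both the blood and the endothelial lineage. Vessels then sprout under vascular endothelial growth factor (VEGF), which signals through receptors of the Kdr and Flt families, while the Notch ligand Dll4 limits sprouting and the adhesion protein Cdh5 joins the cells into a tube.

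Of the transcription factors, etsrp showed the greatest copper difference of the 9 measured genes at 96 hpf. Its single probe had a processed signal of 3910 in copper embryos and 932 in control embryos at 96 hpf, and 8620 in copper embryos and 3100 in control embryos at 24 hpf. In normalized log2 units these were 12.25 in copper and 10.13 in control embryos at 96 hpf, and 12.46 in copper and 11.60 in control embryos at 24 hpf. The control array at 96 hpf was the low one, and the other 3 arrays lay above it. The copper array was 4.36-fold higher at 96 hpf (log2 difference 2.12) and 1.81-fold higher at 24 hpf (0.86). At 96 hpf 1.41% of all genes were at least as far above 0, and at 24 hpf 4.65% were. In the authors' deposited table this probe is listed under the symbol etv2 at 96 hpf with a log2 fold of -2.12, and it lies on chromosome 16 from 44778634 to 44778693 (Zv9). With 1 probe, there is no other measure of the gene here to set beside it. Whether this probe measures etsrp alone was not tested, because its sequence was not at hand.

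The partner genes tal1 and lmo2 lay below 0 at 96 hpf, where etsrp lay above, but the tal1 difference was small. The brightest tal1 probe was at 11.48 in copper and 11.61 in control embryos at 96 hpf, and at 11.68 in copper and 12.01 in control embryos at 24 hpf. These are log2 differences of -0.14 and -0.33, and the copper array was the lower one at each age. At least as far below 0 were 40.9% of all genes at 96 hpf and 43.7% at 24 hpf. The other tal1 probe was at 5.85 in copper and 6.23 in control embryos at 96 hpf, and at 6.90 in copper and 5.69 in control embryos at 24 hpf. It was thus lower with copper at 96 hpf (-0.38) and 2.32-fold higher at 24 hpf (1.21, or 0.61 with normexp background correction). At 24 hpf the tal1 probes lay 1.55 apart in log2 difference, so they give no single direction for tal1 at that age. In the authors' deposited table that second probe lies on chromosome 22 from 16765473 to 16765532 (Zv9) and has a log2 fold of -1.21 at 24 hpf.

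The 3 lmo2 probes were all lower with copper at 96 hpf. The brightest was at 8.53 in copper and 9.20 in control embryos at 96 hpf, and at 10.65 in copper and 10.47 in control embryos at 24 hpf. At 96 hpf the 3 probes differed by -0.68, -0.66 and -0.48, which for the brightest is 1.60-fold lower, and 6.15% of all genes were at least as far below 0. At 24 hpf they differed by 0.17, -0.14 and 0.20, with 1 of 3 probes on the other side of 0. Both arrays at 96 hpf were below both arrays at 24 hpf on every lmo2 probe. The share of all genes whose arrays separate by age in this way is not given here, so such a split is no trait of the genes named.

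The receptors showed small copper differences at 96 hpf. The gene kdrl encodes a VEGF receptor of the VEGFR2 type, and its brightest probe was at 7.78 in copper and 7.57 in control embryos at 96 hpf, and at 7.94 in copper and 7.07 in control embryos at 24 hpf. Both kdrl probes were higher in the copper array at each age, by 0.20 and 0.32 at 96 hpf and by 0.87 and 0.12 at 24 hpf. The brightest probe at 24 hpf passed 2-fold under 75th-percentile scaling (1.32) and was at 0.61 with normexp background correction. The gene's other probe then came to 0.0019 under normexp, so the size of the 24 hpf difference rested on the probe and the scaling.

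The gene flt1 encodes a VEGF receptor of the VEGFR1 type, whose soluble form binds the ligand away from other receptors. Its brightest probe was at 9.80 in copper and 9.66 in control embryos at 96 hpf, and at 9.11 in copper and 9.89 in control embryos at 24 hpf. The copper array at 24 hpf was the lowest of the 4. The brightest and the second flt1 probe were lower with copper at 24 hpf after normalization, with log2 differences of -0.78 and -0.95. Their processed signals, not scaled between arrays, were 926 in copper and 832 in control embryos for the brightest, and 29.3 and 25.0 for the second. Under normexp the differences came to -0.73 and -0.29, so the second, weak probe gives no firm size. The dimmest probe had processed signals between 15.4 and 33.4 and was not well above background on the copper array at 96 hpf or on the control array at 24 hpf, so no copper difference is given for it at either age. At 96 hpf the other 2 probes differed by 0.14 and -0.00074.

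The gene flt4 encodes the receptor for VEGF-C, which acts in veins and lymphatic vessels. It had nearly equal values within each age, with 8.65 in copper and 8.67 in control embryos at 96 hpf and 9.64 in copper and 9.63 in control embryos at 24 hpf. The copper differences were -0.024 and 0.0095, and the second came to 0.20 under 75th-percentile scaling and to -0.10 under normexp. Both arrays at 96 hpf were below both at 24 hpf, as they also were for the brightest tal1 probe and all 3 egfl7 probes. For tal1 the gap was small, with 11.61 in control embryos at 96 hpf and 11.68 in copper embryos at 24 hpf. The share of all genes that split by age in this way is not given here.

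The junction gene cdh5, which encodes VE-cadherin, gave a weak signal: its probe had a processed signal of 23.1 in copper and 29.2 in control embryos at 96 hpf, and 116 in copper and 69.1 in control embryos at 24 hpf. The normalized values were 4.71 in copper and 4.89 in control embryos at 96 hpf, and 6.15 in copper and 6.58 in control embryos at 24 hpf. The copper array was lower by 0.17 at 96 hpf (log2 difference -0.17) and by 0.43 at 24 hpf (-0.43, or -0.02 under 75th-percentile scaling). Both arrays at 96 hpf were below both at 24 hpf, a split whose share over all genes is not given here.

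The Notch ligand gene dll4, which marks arteries and sprouting tip cells, hardly varied after quantile normalization. It was at 8.36 in copper and 8.47 in control embryos at 96 hpf, and at 8.58 in copper and 8.40 in control embryos at 24 hpf. The dll4 values at 96 and 24 hpf overlapped. Its copper difference at 24 hpf was 0.18, or 0.52 under 75th-percentile scaling. The gene egfl7 encodes a protein secreted by endothelial cells, and its brightest probe was at 10.81 in copper and 10.94 in control embryos at 96 hpf, and at 11.41 in copper and 12.00 in control embryos at 24 hpf. All 3 egfl7 probes were lower with copper at each age, between -0.10 and -0.23 at 96 hpf and between -0.23 and -0.59 at 24 hpf. The dimmest came to 0.017 at 24 hpf under 75th-percentile scaling. Of all genes, 41.2% at 96 hpf and 23.3% at 24 hpf were at least as far below 0 as the brightest egfl7 probe.

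**Figure D1:**
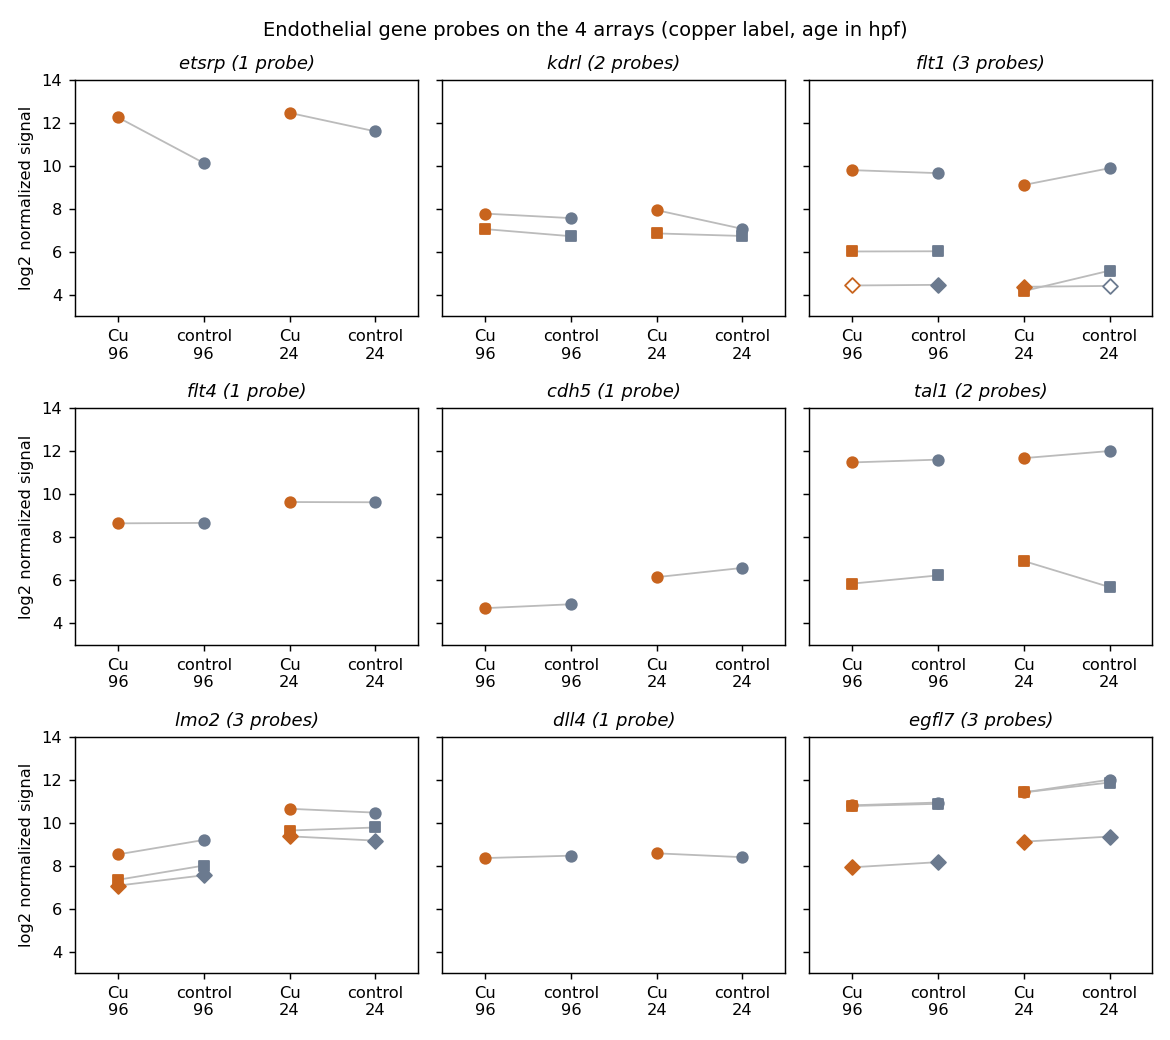
Normalized log2 signal of each probe (y axis) on the 4 arrays (x axis: copper then control, at 96 then 24 hpf), with 1 panel per gene; orange marks copper, grey marks control, marker shapes separate probes, open markers are not well above background, and grey lines join the arrays of one age. The etsrp value of the control array at 96 hpf (10.13) stands below its other 3 values, and on each lmo2 probe and on the cdh5 probe both values at 96 hpf lie below both at 24 hpf. The same holds for flt4, the brightest tal1 probe and each egfl7 probe, and the share of all genes that split so is not given here.

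Taking the 9 measured genes by their brightest probes, 1 was higher with copper at 96 hpf by 2-fold or more and 0 were lower, while 5.67% of all genes were higher and 2.16% lower by that much (7.83% either way). The 1 gene was etsrp. The other 8 lay between -0.68 and 0.20, 3 of 9 genes were above 0 where 44.0% of all genes were, and the median was -0.11 against -0.053 over all genes. Over probes, 1 of 17 was 2-fold higher and 0 were lower, against 5.20% and 3.16% of all probes (8.36% either way), and 4 of 17 were above 0, against 42.1% of all probes. The counts of 17 probes take the dimmest flt1 probe at its measured value.

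At 24 hpf 0 of the 9 genes passed 2-fold in either direction, against 9.71% of all genes (3.58% higher and 6.13% lower). The differences ran between -0.78 (flt1) and 0.87 (kdrl), with 5 of 9 genes above 0 where 29.0% of all genes were, and the median was 0.0095 against -0.26 over all genes. The genes above 0 were etsrp, kdrl, lmo2, dll4 and flt4. The 4 further vessel lists, read below, had medians under 0 at 24 hpf. Above 0 were 1 of 14 transcription factors (median -0.38) and 5 of 28 surface and junction genes (-0.44). The counts were 4 of 11 for arterial, venous and Notch genes (-0.37) and 3 of 7 for ligand genes (-0.17). The median of the 9 genes moved with the scaling, to 0.20 under 75th-percentile scaling and -0.10 under normexp, which also turned the sign of flt4. By probe, 1 of 17 was 2-fold higher (the second of tal1) and 0 were lower, against 9.45% and 6.10% of all probes (15.6% either way), and 8 of 17 were above 0, against 43.0% of all probes. A gene's probes could disagree: of 6289 genes with more than 1 probe detected on all 4 arrays, 27.7% had probes whose copper differences lay 2-fold or more apart at 24 hpf, against 2.43% at 96 hpf.

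**Figure D2:**
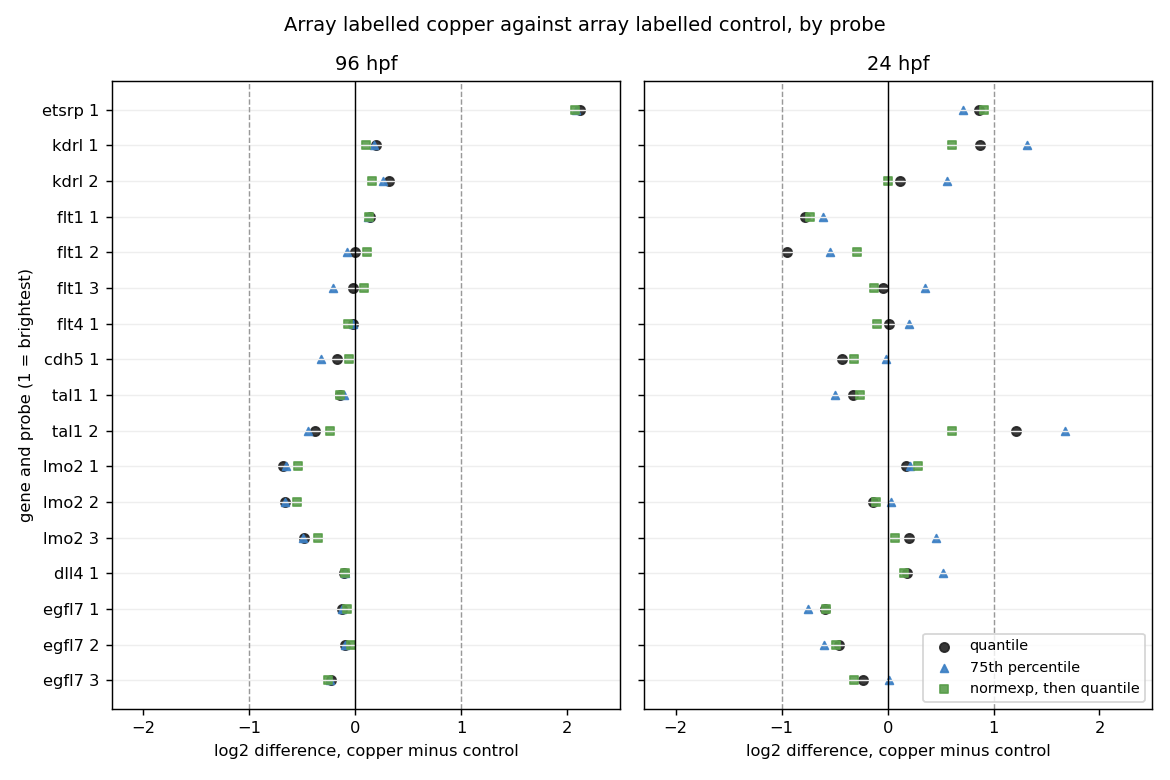
Log2 difference, copper minus control by label (x axis), for each probe (y axis, numbered from the brightest) at 96 hpf (left) and 24 hpf (right), under 3 normalizations; dashed lines mark 2-fold, and the dimmest flt1 probe, not well above background on 1 array of each age, is drawn at its measured values. At 96 hpf etsrp alone passes 2-fold, at 2.07 to 2.12 across the normalizations, while at 24 hpf the normalizations spread further, as for the brightest probe of kdrl (0.61 to 1.32).

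A change with copper shared by both ages was tested with limma, in a fit of age and copper over the 4 arrays. This fit has 1 residual degree of freedom, and a gene passes only if it moves alike at the 2 ages. It called 0 of the 9 genes at an adjusted p under 0.05, as it called 0 of all 36026 probes. At an unadjusted p under 0.05 stood 1 of 9 genes, against 1.52% of all genes, and 1 of 17 probes, against 1.97% of all probes. This was etsrp, with a mean log2 difference of 1.49 (SE 0.41, unadjusted p = 0.00419, limma adjusted p = 0.9999), higher in the copper array at 2 of 2 ages. Among all probes tested its unadjusted p was the 40th smallest.

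Between the ages, lmo2 and cdh5 fell. In the same limma fit, which compares the 2 arrays at 96 hpf with the 2 at 24 hpf, the brightest lmo2 probe averaged 8.87 at 96 hpf and 10.56 at 24 hpf, a log2 difference of -1.70 (SE 0.44, limma adjusted p = 0.0155), or 3.24-fold lower. The other lmo2 probes had log2 differences of -2.02 (limma adjusted p = 0.00778) and -1.95 (limma adjusted p = 0.0108). The cdh5 probe averaged 4.80 at 96 hpf and 6.37 at 24 hpf, a log2 difference of -1.57 (SE 0.52, limma adjusted p = 0.0429), or 2.96-fold lower. Within one treatment, lmo2 was lower at 96 hpf by 2.12 in the copper arrays and by 1.27 in the control arrays, and cdh5 by 1.44 in the copper arrays and 1.70 in the control arrays (log2 differences of -2.12, -1.27, -1.44 and -1.70).

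Thus 2 of 9 genes were called lower and 0 higher at 96 hpf, against 15.1% and 17.3% of all genes (32.4% either way). By probe 4 of 17 were called lower and 0 higher, against 15.7% and 14.9% of all probes (30.6% either way). The median age difference of the 9 genes was -0.83, against -0.10 over all genes. Of the 9 genes 7 were below 0. The all-gene median is also below 0, but the share of all genes below 0 is not given here. With 1 array per group, the spread behind the limma p-values is no replicate spread, technical or biological. It is how far a probe's copper difference changed between the ages, drawn by eBayes towards a trend over all probes. The labels do not say whether the arrays held separate pools of embryos. The size of the cdh5 difference depended on the background correction, with -0.71 under normexp (limma adjusted p = 0.031), and its call was lost under 75th-percentile scaling (-1.19, limma adjusted p = 0.138), and without the copper array at 96 hpf neither lmo2 (-1.36, limma adjusted p = 0.0943) nor cdh5 (-1.48, limma adjusted p = 0.149) was called; lmo2 was also not called without the copper array at 24 hpf (limma adjusted p = 0.0598), nor cdh5 without the control array at 24 hpf (0.0595) or at 96 hpf (0.0709).

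The other 7 genes did not pass the age test. The gene flt4 differed by -0.97 (SE 0.43, limma adjusted p = 0.117), with -0.99 in the copper arrays and -0.96 in the control arrays. The 3 egfl7 probes differed by -0.83, -0.81 and -1.19 (limma adjusted p between 0.0684 and 0.127), lower at 96 hpf in both treatments on every probe. For etsrp the age difference was -0.84 (SE 0.41, limma adjusted p = 0.145), made of -0.21 in the copper arrays and -1.47 in the control arrays. Without the copper array at 96 hpf it was -1.90 (limma adjusted p = 0.00304), and without the control array at 96 hpf it was 0.22.

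The genes kdrl (0.17), dll4 (-0.068) and tal1 (-0.30) lay near 0, with limma adjusted p between 0.565 and 0.929. The probes of flt1 differed among themselves. The brightest differed by 0.23 (limma adjusted p = 0.736), while the second, matched through another accession of the gene, was at 6.02 in copper and 6.03 in control embryos at 96 hpf, against 4.18 in copper and 5.13 in control embryos at 24 hpf. Its difference was 1.37 (SE 0.54, limma adjusted p = 0.0819), higher at 96 hpf in both treatments.

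**Figure D3:**
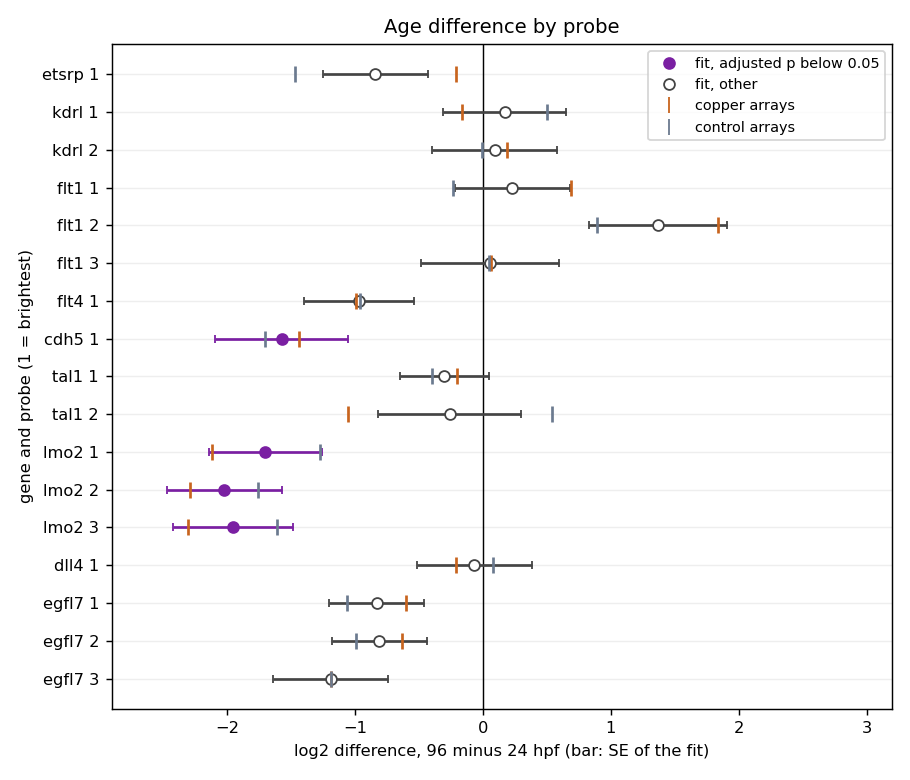
Log2 difference of 96 minus 24 hpf (x axis) for each probe (y axis, numbered from the brightest); circles are the limma estimate with its SE, filled where the adjusted p was below 0.05, and ticks are the difference within the copper arrays (orange) and within the control arrays (grey). The 3 lmo2 probes (-1.70 to -2.02) and the cdh5 probe (-1.57) are filled, and the ticks of etsrp (-0.21 and -1.47) stand far apart.

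Further genes linked to vessels, including ligands, were taken as 4 lists. RNA of whole embryos does not show which cells express them. Their counts are read against all genes: 17.3% were called higher and 15.1% lower with age, 5.67% were 2-fold higher and 2.16% lower with copper at 96 hpf, and 3.58% were 2-fold higher and 6.13% lower at 24 hpf. Of 17 other endothelial transcription factors 14 were measured, and 1 was called for age, against 32.4% of all genes: klf2a, a factor induced by blood flow, rose at 96 hpf by 2.93 (SE 0.45, limma adjusted p = 0.001). The same gene was 2.97-fold higher with copper at 96 hpf, with 14.46 in copper and 12.89 in control embryos on its brightest probe. It was higher on 2 of 2 probes. It was the 1 gene of 14 past 2-fold at that age, against 7.83% of all genes. At 24 hpf elk3 was 2.97-fold higher with copper, or 0.88 in log2 under normexp, and erg was 2.01-fold lower on its brightest probe, or -0.90 under normexp, with its other probe higher.

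Of 41 surface and junction genes 28 were measured, and their median differences were -0.01 for age and -0.14 for copper at 96 hpf. At 96 hpf 4 of 28 rose and 1 fell relative to 24 hpf, against 17.3% and 15.1% of all genes. The vesicle diaphragm gene plvapb (2.17), the von Willebrand factor gene vwf (1.82) and the scavenger receptor gene stab1 (1.34, limma adjusted p = 0.0384) rose, and tmem88a fell by 1.75 (limma adjusted p = 0.0136). None of the 28 was past 2-fold with copper at 96 hpf, and at 24 hpf 1 was, the VEGF receptor kdr, which was 2.22-fold higher (0.54 in log2 under normexp).

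Of 14 arterial, venous and Notch genes 11 were measured. The Notch receptor gene notch3 fell by 2.07 at 96 hpf relative to 24 hpf, and hey2, which encodes a Notch target in arteries, fell by 1.34. The chemokine receptor gene cxcr4a fell by 1.99, with 3 of 3 probes lower at 96 hpf. The water channel aqp8a.1 rose by 1.39 and was 2.38-fold higher with copper at 96 hpf, with 11.28 in copper and 10.03 in control embryos. Of the 13 ligand genes 7 were measured, and 2 rose and 1 fell with age: ccbe1, needed for lymphatic vessels, rose by 2.72 and the peptide gene apln by 1.20 (its other probe was lower at 96 hpf), while the Tie2 ligand gene angpt1 fell by 1.69. For angpt1 this is the brightest probe, and 2 of 2 probes were lower at 96 hpf. The VEGF gene vegfaa differed by 0.26 with age (limma adjusted p = 0.734) and by 0.35 with copper at 96 hpf and 0.24 at 24 hpf. At 24 hpf ccbe1 was 2.76-fold higher with copper, on its single probe.

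**Figure D4:**
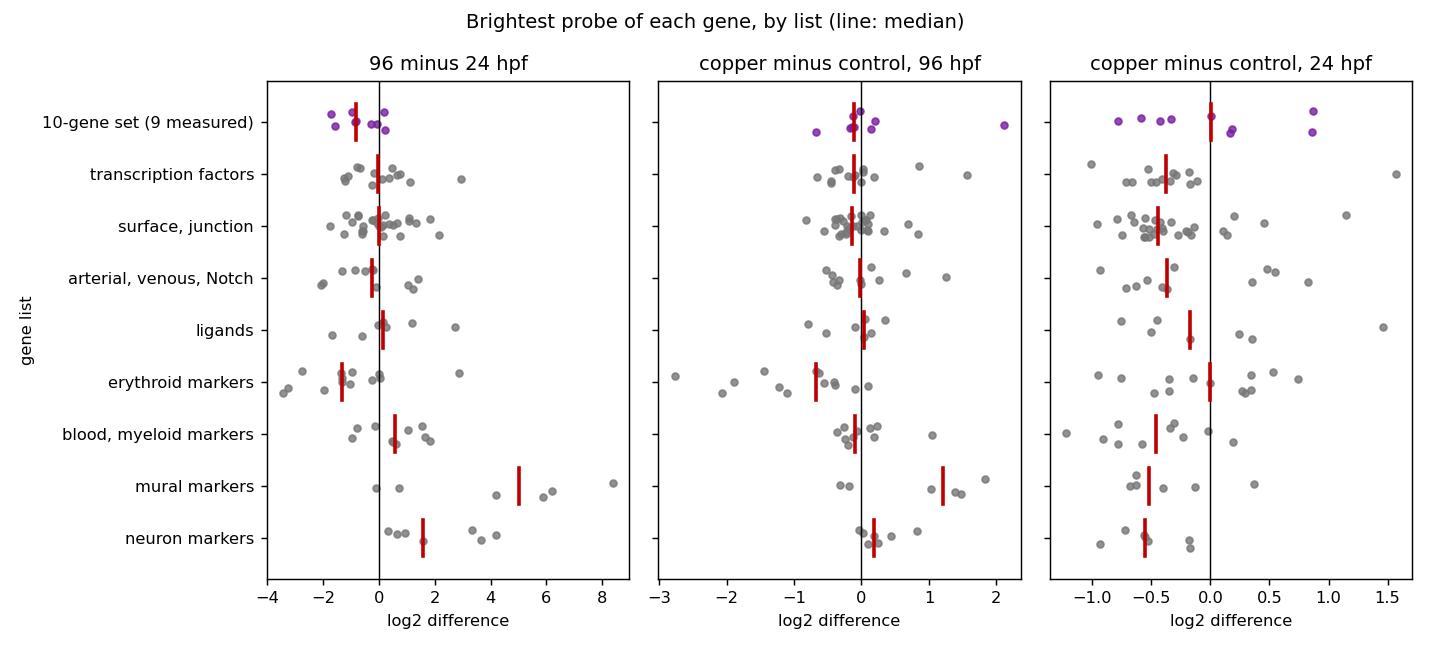
Log2 difference (x axis) of the brightest probe of each gene, by list (y axis), for 96 minus 24 hpf (left), copper minus control at 96 hpf (middle) and copper minus control at 24 hpf (right); points are genes, at measured values, and red lines are medians. The 9 measured genes of the set have a median of -0.83 for age, the erythroid markers -1.33 and the mural markers 5.04, and the erythroid markers have a median of -0.67 with copper at 96 hpf.

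Because tal1 and lmo2 also act in blood, markers of red blood cells were read beside them. Like the other lists, these markers were chosen with earlier results of these data known, so their counts are no independent test. All 13 measured erythroid markers of 15 were well above background at 24 hpf and on the control array at 96 hpf. At 96 hpf 12 of 13 were lower in the copper array, as lmo2 was, while 44.0% of all genes were above 0, with a median of -0.67, or -0.63 with tfr1a at its bound. The summed normalized signal was 133100 in copper and 227000 in control embryos at 96 hpf, and 163700 in copper and 171600 in control embryos at 24 hpf. A pair of globin probes made up most of the gap at 96 hpf: hbae3 was at 16.48 in copper and 17.10 in control embryos, and hbbe2 at 14.60 in copper and 15.70 in control embryos. By the brightest probe, the heme synthesis enzyme alas2 was 4.21-fold lower with copper at 96 hpf, and the anion exchanger slc4a1a 3.71-fold lower. In direction, 4 of 4 alas2 probes and 2 of 2 slc4a1a probes were lower. The iron uptake receptor gene tfr1a was not well above background on the copper array at 96 hpf and was at least 1.07-fold lower there. With it at this bound, 5 of 13 were lower by 2-fold or more, against 2.16% of all genes.

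With age the erythroid markers had a median of -1.33, with 5 of 13 called lower and 1 higher, against 15.1% and 17.3% of all genes. The erythroid factor gata1a fell by 2.76 and urod, an enzyme of heme synthesis, fell by 3.26, while the globin hbbe2 rose by 2.87. The other 7 were not called, among them hbae3 (0.00) and cahz (0.04). The median was the value of alas2, which was at 10.07 at 96 hpf and 12.58 at 24 hpf in the copper arrays. In the control arrays alas2 was at 12.14 and 12.30, while gata1a fell there too, with 8.27 at 96 hpf and 11.00 at 24 hpf. The lmo2 decrease at 96 hpf stands beside these mixed values, and the part of red blood cells in it was not tested.

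Other cell types were read in the same way, against 17.3% of all genes called higher with age and 5.67% higher by 2-fold with copper at 96 hpf. Of 14 markers of blood progenitors and myeloid cells 10 were measured, with a median of 0.57 for age and -0.092 for copper at 96 hpf, and 3 rose with age (runx3 by 1.84, mpeg1.1 by 1.65 and mpx by 1.54). Of the 4 mpx probes, 1 was lower at 96 hpf and 3 were higher. With copper at 96 hpf, gfi1aa was 2.07-fold higher on its single probe, or 0.84 in log2 under normexp. It was the 1 gene of 10 past 2-fold at that age, against 7.83% of all genes. At 24 hpf runx3 was 2.32-fold lower with copper, or -1.09 in log2 under normexp. It was the 1 gene of 10 past 2-fold then, against 9.71% of all genes. Of 8 mural cell markers 6 were measured, and 4 rose with age. The muscle genes tagln and acta2 rose by 6.20 and 5.89 and myh11a by 4.18, while desmb was not well above background on either array at 24 hpf and was at least 148-fold higher at 96 hpf. These 4 genes, which smooth muscle outside vessels also expresses, were higher with copper at 96 hpf by 2-fold or more. The gene pdgfrb, which encodes a receptor of mural cells, differed by -0.18 and abcc9 by -0.32. The pdgfrb probe was weak, at 4.64 in copper and 4.82 in control embryos at 96 hpf. The lowest values well above background on these arrays were 4.56 and 4.08, so pdgfrb can show little of a change. All 7 genes listed for neurons that express tal1 were well above background on all 4 arrays. With age 4 rose, gad1b by 4.20, sst1.1 by 3.66, slc32a1 by 3.33 and gata3 by 1.57, and 3 were not called (tal2, gata2a and gad2). RNA of whole embryos does not show how much of these signals came from neurons that express tal1. The summed normalized signal of the 7 genes was 67020 in copper and 56180 in control embryos at 96 hpf, and 19300 in copper and 24440 in control embryos at 24 hpf. The brightest tal1 probe had an age difference of -0.30 beside these values.

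Over the 4 arrays, the median profile of the 9 genes about its own mean was -0.22 in copper and -0.35 in control embryos at 96 hpf, and 0.35 in copper and 0.32 in control embryos at 24 hpf. The member nearest to it was flt4, at a Euclidean distance of 0.38 in log2 units, and etsrp was the farthest. Of the other named genes, the 5 nearest were slc45a3, pigq, wu:fy63c09, ft1 and ralbb, at distances between 0.062 and 0.078.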

How the data were processed

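Total RNA of whole embryos was labelled with Quick Amp (version 5.7) and read with Feature Extraction 11.0.1.1, per the series' design text. Per the file headers, spot intensity in the deposited files is background-subtracted and detrended within each array, with no scaling between arrays, and all 4 arrays came from 1 slide and scan. The authors' deposited table holds log2 fold changes of probes past 2-fold, which the authors took after quantile normalization in GeneSpring GX 11.5.1, with Zv9 coordinates.

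Here log2 processed intensity was averaged by probe, then quantile-normalized. Leaving out control spots and spots marked as outliers cost 34 of 43603 probes. Probe accessions were matched to RefSeq symbols (assembly GRCz12tu, no coordinates taken), which named 25957 probes. The fit used limma 3.58.1 (R 4.3.3) with eBayes, trend and Benjamini-Hochberg adjustment over 36026 probes. It was also run on data simulated from its own fitted spread, which cannot show whether p-values from 4 arrays hold. Counts and medians were taken in Python 3.11.15 (pandas 2.3.3). Spots of one probe on an array had a median SD of 0.06 to 0.12 (log2), and the number of arrays limits the precision. A probe not well above background on one side has a bound only: its bright value over that array's lowest normalized value well above background, or over its own if that was higher.

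The 10 genes and the other lists were chosen with earlier results of these data known. From each other list, at most 4 genes called for age and 3 per age past 2-fold with copper were named, by size. The genes vegfaa, pdgfrb, abcc9, hbae3 and cahz were added after their values were seen, and tal2, gata2a and gad2 were named as not called. Alternatives were 75th-percentile scaling, normexp background correction (offset 50) on median spot and background intensity, detection on all 4 arrays, no filter, mean of detected probes, the treatment in the file names, the authors' table, eBayes without trend, an age-only fit, each array left out and a 2-fold minimum.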

Additional observations from a re-analysis of the deposited data

Results flagged for a closer look

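Of the 9 measured genes, 3 had copper differences of opposite sign at the 2 ages under all 3 normalizations, with 1 array per group, and the difference between the ages was not tested. The log2 difference of copper minus control was 0.14 at 96 hpf and -0.78 at 24 hpf for flt1, -0.68 at 96 hpf and 0.17 at 24 hpf for lmo2, and -0.11 at 96 hpf and 0.18 at 24 hpf for dll4. Opposite signs were common, in 53.6% of all 12332 genes. If the treatment in the file names is right, all 6 signs turn and the ages still differ in sign.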

How the results depend on the processing

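Other settings changed these values. Under 75th-percentile scaling 1 of 9 genes (kdrl) passed 2-fold with copper at 24 hpf, where 0 did, and 1 gene (lmo2) was called for age in place of 2. With no filter 0 genes were called for age by limma, with 3 at an unadjusted p under 0.05 and a smallest adjusted p of 0.05692. With 1 array left out, in an age-only fit, 1 gene was called each time: cdh5 without the copper array at 24 hpf, lmo2 without the control array at 24 or 96 hpf, and etsrp without the copper array at 96 hpf. By the treatment in the file names, the 1 gene past 2-fold at 96 hpf (etsrp) is lower with copper. The age difference of dll4 turned to 0.13 under 75th-percentile scaling. With arrays left out, age differences ranged from -0.16 to 0.021 for dll4, from -0.16 to 0.62 for flt1, from -0.26 to 0.61 for kdrl and from -1.90 to 0.22 for etsrp. Under normexp the age difference of cdh5 was -0.71. Neither lmo2 (-2.03 to -1.36) nor cdh5 (-1.78 to -1.35) changed sign then. The causes were not tested. No paired analysis was possible, because each group was 1 array and the labels name no pairs. The weak signal of cdh5, of pdgfrb and of the second and the dimmest flt1 probe limits their folds. The same limit holds for kdr, elk3 and the second tal1 probe, whose 2-fold copper differences at 24 hpf were smaller under normexp. It also holds for vwf, which was at 5.30 in copper and 5.87 in control embryos at 24 hpf.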
